A study of Rattus norvegicus with 4 samples.

Results

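The nuclear genes for the proteins of the mitochondrial ribosome were followed here in NR8383 cells, a macrophage line established from rat lung lavage. They were found as array probes whose RefSeq accession maps to a rat gene symbol that starts with Mrpl or Mrps and a digit, which gave 68 genes and 85 probes, of 16581 named genes and 45598 probes in all. The cells, at 20 passages, had been seeded in flasks for 48 h, and NRCWE049, a carbon nanotube functionalized with NH2 groups, was then present for 4 h at a dose of 1.2 cm²/cm². All 4 arrays used here are biological replicates of this 1 exposed group. Unexposed cells were not analysed here, so nothing below shows what the nanotubes changed, and each comparison is between replicates of exposed cells or between the ribosomal genes and all detected genes. The model is 1 cultured line, part of whose cells adhere and part of which float, per the labels.

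Mitochondria carry their own ribosome, which translates the few proteins encoded in mitochondrial DNA, all of them subunits of the respiratory chain and the ATP synthase. Its RNA comes from the mitochondrial genome, whereas its proteins are encoded in the nucleus, made in the cytosol and imported. Many of them descend from bacterial ribosomal proteins, and others were added in the mitochondrial lineage. The small subunit decodes the messenger RNA, and the large subunit forms peptide bonds and faces the inner membrane, into which the products are inserted.

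The level of a gene is its log2 processed signal minus the 75th percentile taken, on that array, over all detected probes, and values of ± are SD over 4 replicates. Levels of different genes come from different probes and are not set against each other. Arrays detected 19143 to 19311 probes each, and dim areas, blocks of the array with an excess of low spots, were found on replicate 1 (3 blocks) and on no other array. Replicate 1 stood farthest from the others, with median absolute differences over genes of 0.176, 0.192 and 0.206 from replicates 2, 3 and 4, against 0.085 to 0.169 among those. Without it the median SD was 0.079 for members and 0.116 for all genes. The macrophage label was borne by all 8 marker genes measured, whereas 0 of 6 epithelial, 0 of 5 fibroblast, 0 of 3 lymphocyte and 2 of 4 endothelial markers (Pecam1 and Cdh5) were well above background on all arrays.

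All 68 mitochondrial ribosomal protein genes were detected, that is, well above background on each of the 4 arrays. Over all named genes the share was 52.5%. The 68 include 23 genes of the small subunit, 44 of the large subunit and Mrps21l, a gene named after its likeness to Mrps21. Mrps18a and Mrps30 are counted with the large subunit, where their proteins sit despite their names. Another 10 protein-coding symbols of the same pattern were not analysed here. The gene table lists pseudogenes of 21 of the 68 genes (9 of Mrpl30), and whether a probe also bound RNA from such a copy was not tested.

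The median SD of a member was 0.110, and over all 8713 detected named genes it was 0.151. With another background correction (normexp on the median spot signal) these medians were closer, at 0.122 and 0.130. Members are mostly bright, and bright genes have low SDs: in the brightest 2904 genes the median SD was 0.097 for 45 members and 0.112 for all genes, and in the 2904 genes of middle brightness it was 0.159 for 19 members and 0.146 for all genes. Set against the SD expected at a gene's brightness, the median ratio was 0.875 for members (1.01 in the small and 0.864 in the large subunit) and 0.958 for all genes, and 39 of 68 members lay below the expected SD, against 53.4% of all genes. The highest and lowest replicate differed by more than 1.5-fold in 5 of the 68 members, against 17.2% of all detected genes, and by more than 2-fold in 1 member, against 2.66%. The 5 were Mrps15, Mrps18c, Mrps14, Mrpl21 and Mrpl49, and their number was 1 without replicate 1 and 2 without replicate 4. It was also 2 without the dim array areas, a setting in which Mrps14 and Mrps15 have no value and drop out. The loss of these 2 does not make up the whole fall from 5 to 2. Mrpl49 was barely over the limit in the reported setting (1.501-fold), and its SD went from 0.275 to 0.269 without the dim areas. No member varied between replicates by more than genes of like brightness in limma's fit over all detected genes (0 of 68 at an adjusted p under 0.05, against 0.0115% of all genes). At an unadjusted p under 0.05 there were 2 members, Mrps15 and Mrps18c, and the share of all genes was 4.3%. Without the dim array areas, where Mrps15 was not tested, or with a constant prior variance, 1 member was left. With 4 arrays this test finds only large differences in spread, and a member left uncalled could still have varied.

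**Figure D1:**
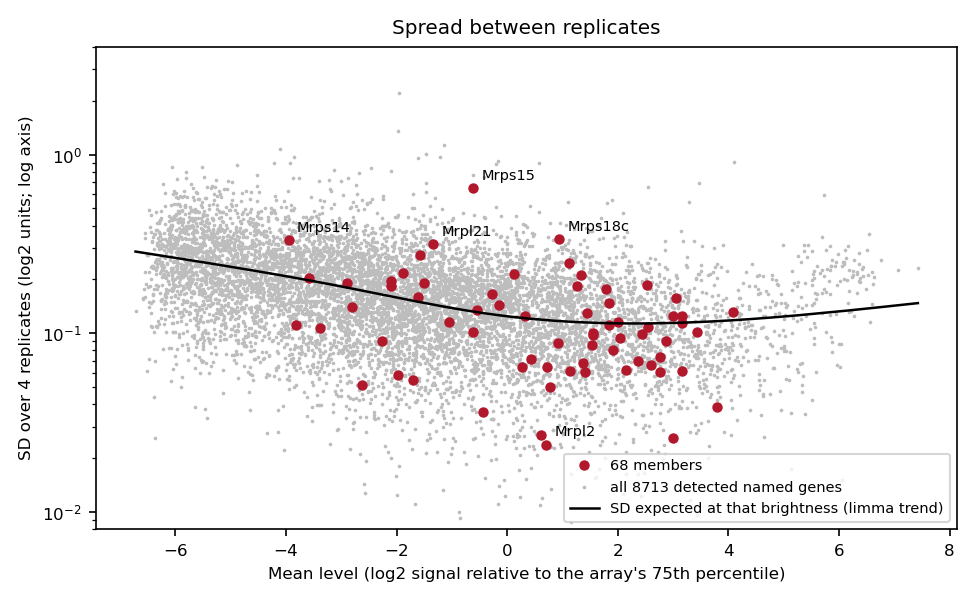
SD over 4 replicates (log2 units, log axis) of each of the 68 members (red) and of all 8713 detected named genes (grey) against the gene's mean level, with the SD that limma's trend expects at that brightness (black line). Mrps15 (SD 0.65) and Mrps18c (0.34) lie far above the line, and Mrpl2 (0.024) far below it.

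A small shift ran through most members, with replicate 1, the array farthest from the others, at its upper end. They stood above their own 4-replicate mean in replicate 1 in 56 of 68 cases, against 53.3% of all detected genes, and in replicate 4 in 17 of 68, against 51.5%. Replicates 2 and 3 lay between, with 39 and 24 of 68 members above their mean, against 47.2% and 45.5% of all genes. For replicates 1 to 4 the median deviations of the members were 0.09, 0.02, -0.03 and -0.06, and over all detected genes they were 0.02, -0.01, -0.01 and 0.01. Replicate 1 was the highest for 44 members (34.6% of all genes) and replicate 4 the lowest for 37 (23.7% of all genes), and 27 members had both (12.9% of all genes). Replicate 2 was the highest for 12 members (24.8% of all genes), replicate 3 for 5 (15.9%) and replicate 4 for 7 (24.7%). The lowest level was in replicate 1 for 6 members (28.5% of all genes), in replicate 2 for 16 (27.4%) and in replicate 3 for 9 (20.4%). These are descriptions of 4 arrays and were not tested. Fewer cells with a transcript and less of it per cell cannot be told apart in such bulk RNA.

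**Figure D2:**
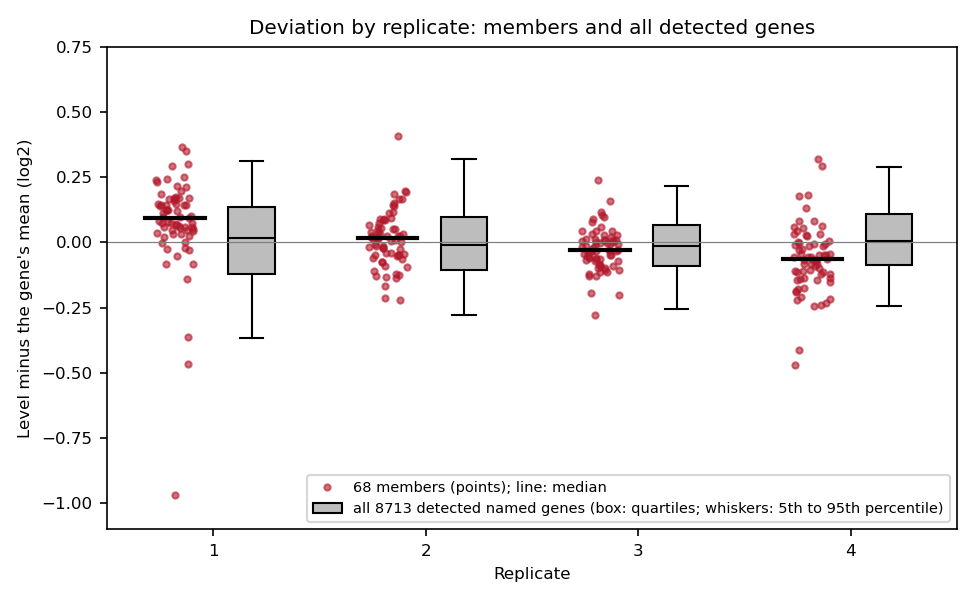
Level minus the gene's own mean over the replicates (log2), by replicate, for the 68 members (points, line at the median) and all 8713 detected named genes (box at the quartiles, whiskers at the 5th and 95th percentile). The median of the members is 0.09 in replicate 1 and -0.06 in replicate 4, and that of all genes 0.02 and 0.01.

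Both subunits took part in the shift. Of the small subunit genes, 18 of 23 were above their own mean in replicate 1 and 8 of 23 in replicate 4. Of the large subunit genes, 38 of 44 were above it in replicate 1 and 8 of 44 in replicate 4. The genes with a bacterial counterpart in the large subunit had the fewest members above their mean in replicate 4 (1 of 25). The median deviation in replicate 1 was 0.10 for small and 0.09 for large subunit genes, and in replicate 4 it was -0.05 and -0.08; the difference between subunits was not tested. Brightness was looked at beside the shift: in the brightest 2904 detected genes, 45 of them members, the members had medians of 0.08 in replicate 1 and -0.08 in replicate 4, and all genes 0.03 and -0.02. In the 2904 genes of middle brightness, 19 of them members, the median in replicate 1 was 0.15 for members and -0.01 for all genes, and in replicate 4 it was 0.00 and 0.03.

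**Figure D3:**
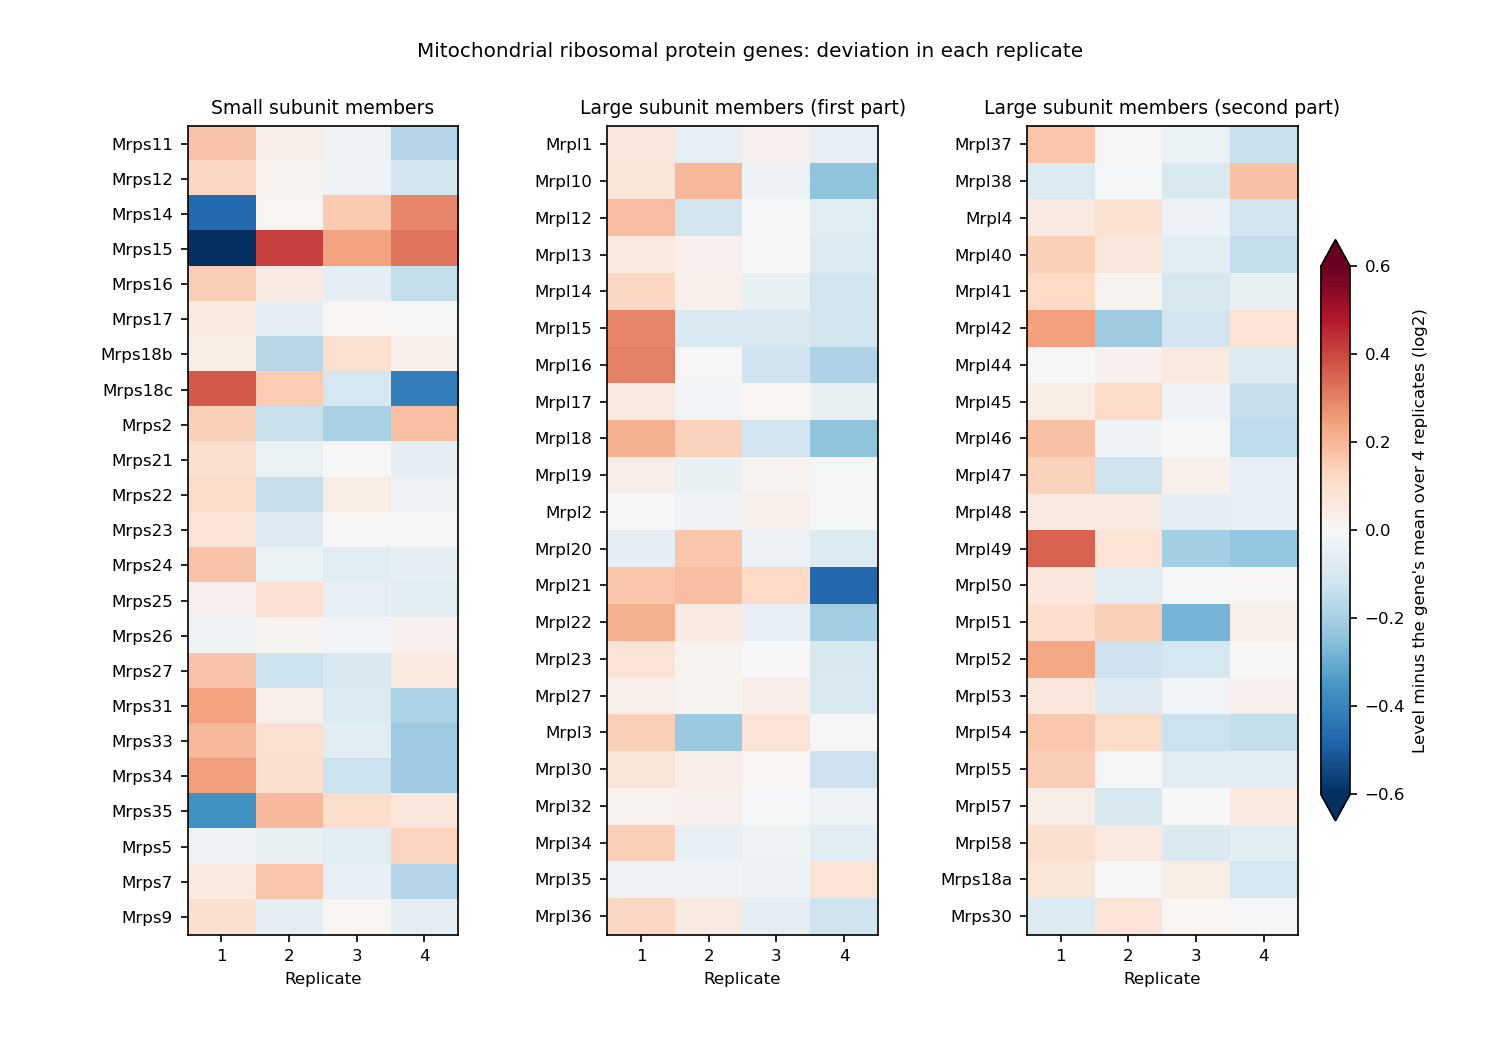
Level minus the gene's mean over 4 replicates (log2, colour, limited at -0.6 and 0.6) in each replicate, for 23 small subunit and 44 large subunit members; Mrps21l is not drawn. Replicate 1 is red for most genes, with Mrps14, Mrps15 and Mrps35 blue there, and replicate 4 is blue for most.

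Promoters of the members were read from RefSeq windows of 250 bases before to 50 bases after the gene start (GRCr8), which cover 55 of the 68 genes in 57 windows. Motifs were searched as letters on both strands, and overlaps between motifs were allowed. CCGGAAG, the core bound by ETS factors, was in 33.3% of the member windows, against 20.1% of the windows of detected named genes and 8.75% of all windows. AAGATGGCG, the core of a YY1 motif, was in 14.0% of the member windows, against 3.915% and 1.73%. GCGCATGCG, most of the palindrome bound by NRF1, a regulator of nuclear genes for mitochondrial proteins, was in 8.77% (Mrpl17, Mrpl22, Mrpl32, Mrpl44 and Mrps18b), against 3.56% and 1.52%. With 1 free base, as GCGCANGCG, which includes it, the shares were 19.3%, against 13.9% and 5.80%. GGGGCGGGG, an SP1 motif, was in 12.3% of the member windows, against 19.7% and 9.73%. CACGTG, an E-box, was in 10.5%, against 9.41% and 6.42%, and CCAAT in 45.6%, against 38.5% and 37.5%. The median GC content was 56.0% in member windows, against 60.3% in windows of detected genes and 51.7% in all windows. The YY1 and NRF1 motifs of 9 letters replaced longer forms that had been searched first, and the shares of the longer forms are not given here. A match is a run of letters and no shown site, and differences between these shares were not tested.

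The windows printed here hold the start sites of Mrpl46 and Mrps11, the 3 Mrps18 copies, which differ in their spread between replicates, and Mrpl17, which holds the NRF1 letters at more than 1 place. They run 5′ to 3′ on the strand of the gene named and come from RefSeq (GRCr8). Capitals mark the motifs named above, on either strand.
Mrpl46, chr1:142116981-142117280, minus strand: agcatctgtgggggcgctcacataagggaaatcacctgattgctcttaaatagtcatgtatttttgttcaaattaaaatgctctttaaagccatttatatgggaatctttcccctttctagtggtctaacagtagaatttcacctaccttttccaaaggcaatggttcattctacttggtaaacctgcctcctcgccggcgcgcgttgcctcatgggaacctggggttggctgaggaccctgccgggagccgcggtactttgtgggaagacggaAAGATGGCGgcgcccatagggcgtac
Mrps18a, chr9:22367331-22367630, minus strand: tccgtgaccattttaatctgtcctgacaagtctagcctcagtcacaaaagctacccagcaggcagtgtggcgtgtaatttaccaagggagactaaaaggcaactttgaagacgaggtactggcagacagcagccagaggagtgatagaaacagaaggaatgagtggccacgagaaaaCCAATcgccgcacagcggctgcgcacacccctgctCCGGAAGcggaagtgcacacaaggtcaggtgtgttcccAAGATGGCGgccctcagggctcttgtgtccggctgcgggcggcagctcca
Mrps18b, chr20:2842756-2843055, plus strand: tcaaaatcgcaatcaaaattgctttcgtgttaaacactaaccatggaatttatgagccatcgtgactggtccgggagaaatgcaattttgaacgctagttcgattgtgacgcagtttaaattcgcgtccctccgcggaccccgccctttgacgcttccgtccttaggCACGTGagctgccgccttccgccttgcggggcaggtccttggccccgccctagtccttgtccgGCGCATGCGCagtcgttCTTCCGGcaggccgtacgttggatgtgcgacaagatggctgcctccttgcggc
Mrps18c, chr14:9122857-9123156, minus strand: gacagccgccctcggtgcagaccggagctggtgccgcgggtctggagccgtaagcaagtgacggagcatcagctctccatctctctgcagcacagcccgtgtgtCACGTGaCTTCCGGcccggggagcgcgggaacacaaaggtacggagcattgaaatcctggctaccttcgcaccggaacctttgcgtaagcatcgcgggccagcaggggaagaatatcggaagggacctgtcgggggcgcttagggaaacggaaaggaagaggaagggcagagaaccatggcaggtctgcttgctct
Mrpl17, chr1:169575650-169575949, minus strand: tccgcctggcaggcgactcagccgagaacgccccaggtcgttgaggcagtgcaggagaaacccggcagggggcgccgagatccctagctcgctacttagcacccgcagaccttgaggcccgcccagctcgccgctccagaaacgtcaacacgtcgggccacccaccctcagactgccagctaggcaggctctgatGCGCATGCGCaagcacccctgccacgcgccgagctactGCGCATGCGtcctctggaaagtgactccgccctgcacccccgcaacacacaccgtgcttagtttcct
Counted from the gene start, the YY1 letters begin at base 25 in Mrpl46 and at base 1 in Mrps18a. All 3 Mrps18 copies hold the ETS letters, beginning at base -38 in Mrps18a, -3 in Mrps18b and -139 in Mrps18c. An E-box begins at base -83 in Mrps18b and at -146 in Mrps18c, and CCAAT at -73 in Mrps18a. The NRF1 letters begin at base -20 in Mrps18b and at -55 and -17 in Mrpl17.

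Of the 55 genes, 18 (32.7%) had another gene that starts within 1000 bases and runs the opposite way, against 18.2% of detected named genes and 11.4% of all genes in the table. In 1 case both are members: Mrpl46 and Mrps11 start 234 bases apart. Mrpl46 had levels of -0.37, -0.56, -0.54 and -0.69 and Mrps11 0.02, -0.11, -0.18 and -0.33, so both were highest in replicate 1 and lowest in replicate 4. Other pairs varied. Mrpl40 deviated by 0.14 in replicate 1, where Hira, which starts 186 bases away, was at -0.62. Mrpl49 and Fau, which encodes a fusion protein that yields a cytosolic ribosomal protein, were both above their means in replicates 1 and 2. Neighbouring genes were not tested against other pairs.

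The 14 small subunit genes whose proteins have a bacterial counterpart had a median SD of 0.120. Mrps12, the protein of the decoding centre whose bacterial relative is a site of streptomycin resistance, had levels of 2.55, 2.45, 2.40 and 2.32 in replicates 1 to 4 (SD 0.10), and its 2 spots per array had SDs of 0.020 to 0.065 within an array. Mrps5, which lines the path of the messenger RNA, had -2.28, -2.30, -2.32 and -2.12 (SD 0.09). Mrps7, an organiser of the head of the subunit, had 1.90, 2.01, 1.79 and 1.66 (SD 0.15). Mrps7 was highest in replicate 2 and lowest in replicate 4, and Mrps5 ran against most members, as 1 of 7 with the highest level in replicate 4. Mrps2, another protein of this class, had -2.76, -3.04, -3.10 and -2.72, so that replicates 1 and 4 were high together. Mrps16, in which variants impair mitochondrial translation in human patients, followed the majority with 3.15, 3.05, 2.95 and 2.86 (SD 0.13).

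The largest spreads in the whole set were also in this class. Mrps15, a protein bound to the ribosomal RNA of the small subunit, had levels of -1.58, -0.21, -0.38 and -0.29 (SD 0.65, 2.60-fold between extremes). Replicate 1 alone was low, 1.29 below the median of the other arrays, and its spot lay in a dim area in which 38 neighbouring spots lay at -0.53 in the median. The unadjusted p was 0.00131 and the adjusted p 0.612 (limma residual variance), so the call was not made, and the part of the dim area in the value was not tested. Mrps14, a protein of the head of the subunit, had -4.42, -3.94, -3.79 and -3.66 (SD 0.33), again with replicate 1 low and its spot in a dim area, although the median of its 52 neighbours was -0.10. Its adjusted p was 0.969 (limma residual variance).

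The Mrps18 genes are 3 copies of an ancestral bacterial gene, and their proteins occupy different places in the ribosome; their promoters are among those printed above. Mrps18c had levels of 1.30, 1.09, 0.83 and 0.52 in replicates 1 to 4 (SD 0.34, 1.72-fold, unadjusted p = 0.0175 and adjusted p = 0.969, limma residual variance), with no dim area at its spot. Mrps18b had -1.004, -1.22, -0.96 and -1.02 (SD 0.12), and Mrps18a 1.98, 1.89, 1.95 and 1.80 (SD 0.08). The spread of Mrps18c was 2.87 times that expected at its brightness, and those of Mrps18b and Mrps18a were 0.826 and 0.704 times it. Mrps18b was lowest in replicate 2, by 0.21 from the median of the other replicates, and Mrps18a in replicate 4, by 0.15.

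Small subunit proteins that arose in the mitochondrial lineage showed both patterns. Mrps34, in which variants cause Leigh syndrome in human patients, had levels of 1.58, 1.43, 1.20 and 1.12 (SD 0.21). Mrps27, a pentatricopeptide repeat protein, had -2.63, -2.93, -2.89 and -2.74 (SD 0.14) by its brighter probe (SD 0.019 by the other and 0.076 for their mean), and Mrps22, another gene of human translation deficiency, -3.26, -3.52, -3.33 and -3.40 (SD 0.11). All of these were highest in replicate 1. Mrps35 had 0.76, 1.32, 1.23 and 1.19 (SD 0.25), with replicate 1 low; its 28 neighbouring spots there lay at -0.04 in the median. Mrps26 hardly moved, at 2.97, 3.01, 2.98 and 3.02 (SD 0.026).

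In the large subunit, the stalk that recruits translation factors was seen through Mrpl10, which forms its base, and Mrpl12, which binds to it and, in human cells, also to the mitochondrial RNA polymerase. Mrpl12 had levels of 4.27, 3.98, 4.08 and 4.02 (SD 0.13). Its probe kept 10, 8, 8 and 7 spots in replicates 1 to 4 after outlier spots were left out. The kept spots of replicate 1 ran from 4.21 to 4.34 and those of the other arrays from 3.92 to 4.14. Replicate 1 thus stood above every kept spot of the others. Spots of 1 array share its RNA sample and its scaling, so they add no replicate. Mrpl10 had 2.61, 2.73, 2.50 and 2.29 (SD 0.19) and was lowest in replicate 4. Levels of both passed no test of spread (adjusted p = 0.972 for Mrpl12 and 0.969 for Mrpl10, limma residual variance).

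The 25 large subunit genes whose proteins have a bacterial counterpart had a median SD of 0.101, and 4 of the 5 smallest SDs of all members were among them. Mrpl2, a protein of the catalytic region, had the smallest SD of all members (0.024), with levels of 0.70, 0.68, 0.73 and 0.69. Mrpl32, whose precursor is cut by an inner membrane protease before it joins the ribosome in yeast, had 0.64, 0.65, 0.61 and 0.59 (SD 0.027). Mrpl19 had -0.40, -0.48, -0.42 and -0.45 (SD 0.036) and Mrpl17 had 3.85, 3.79, 3.81 and 3.76 (SD 0.039). In these 4 genes the whole span between replicates was at most 1.06-fold by the probe used. For Mrpl17 this depended on the probe: its dimmer probe had -1.73, -1.92, -1.92 and -1.995 (SD 0.11), and the mean over both probes had an SD of 0.075. Mrpl3, in which variants cause cardiomyopathy in human patients, had -1.47, -1.83, -1.53 and -1.62 (SD 0.16), with replicate 2 low. Mrpl21 had -1.17, -1.15, -1.22 and -1.81 (SD 0.31); replicate 4 alone was low, by 0.64, and the median deviation of its 43 neighbours was 0.01. The unadjusted p of Mrpl21 was 0.055, and the adjusted p 0.969 (limma residual variance).

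Of the 19 large subunit genes classed here as specific to mitochondria, Mrps18a among them, 16 were above their own mean in replicate 1 and 7 in replicate 4. Mrpl49 had the widest spread of them, with levels of -1.23, -1.50, -1.79 and -1.82 (SD 0.27, 1.501-fold). Mrpl37 had 3.32, 3.17, 3.12 and 3.02 (SD 0.13), and Mrpl41 2.15, 2.05, 1.94 and 1.99 (SD 0.09). Each of these 3 was highest in replicate 1. Mrpl45, which resembles the import protein Tim44 and lies at the membrane side of the exit tunnel, had 2.59, 2.66, 2.52 and 2.41 (SD 0.11). Mrpl58, a peptidyl-tRNA hydrolase built into the ribosome, had 2.98, 2.94, 2.79 and 2.81 (SD 0.09). Other genes of this class departed from the shift. Mrpl38 had 0.23, 0.31, 0.23 and 0.49 (SD 0.12) and was highest in replicate 4. The levels were flatter in Mrpl44, a relative of ribonuclease III, with 1.14, 1.16, 1.20 and 1.05 (SD 0.06), Mrpl57 with 2.64, 2.51, 2.61 and 2.66 (SD 0.07), and Mrps30 with 0.19, 0.35, 0.29 and 0.27 (SD 0.06), which was lowest in replicate 1.

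For some members, probes beyond the one used above gave a second reading of these differences. Of 13 members with several probes, 9 had all of them detected. In the other 4, Mrpl15, Mrpl30, Mrpl47 and Mrps35, probes disagreed on detection: 1 of 2 probes was detected on all arrays for Mrpl15, Mrpl47 and Mrps35, and 3 of 5 for Mrpl30. By its detected probe Mrpl15 had -1.80, -2.18, -2.18 and -2.20 (SD 0.20) and Mrpl47 -3.67, -3.93, -3.79 and -3.86 (SD 0.11). Mrpl30 had 1.61, 1.57, 1.54 and 1.41 (SD 0.09) by its brightest probe.

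In 10 members, 22 probes were detected in all, at least 2 per gene. In 9 of the 10 genes every probe had its highest level in the same replicate, and in 6 every probe had its lowest level in the same one. Replicate 1 was above the probe's own mean for 21 of the 22 probes, and replicate 4 below it for 19. In each gene 1 of these probes is the one that gave the levels above. Over all detected genes, by 1 probe each, 53.3% were above their mean in replicate 1 and 51.5% in replicate 4. The same counts over all genes with several probes were not made. Gaps between probes were taken after each probe's own mean over the replicates was subtracted, so they leave out differences in level. So taken, the probes of Mrps11, a protein of the platform of the small subunit, lay at most 0.07 apart on any array. Their SD over replicates was 0.14 and 0.15. In the same measure the probes of Mrpl1 lay at most 0.06 apart and those of Mrpl45 at most 0.07. Gaps were wider in Mrpl40 (up to 0.40 between 3 probes), Mrps21 (0.26, with probe SDs of 0.068 and 0.26), Mrpl30 (0.15) and Mrps27 (0.15), and lay between 0.085 and 0.113 in the other 3 genes. Probes of 1 gene share the RNA sample and the array, so their agreement speaks only to the probes and adds no replicate.

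**Figure D4:**
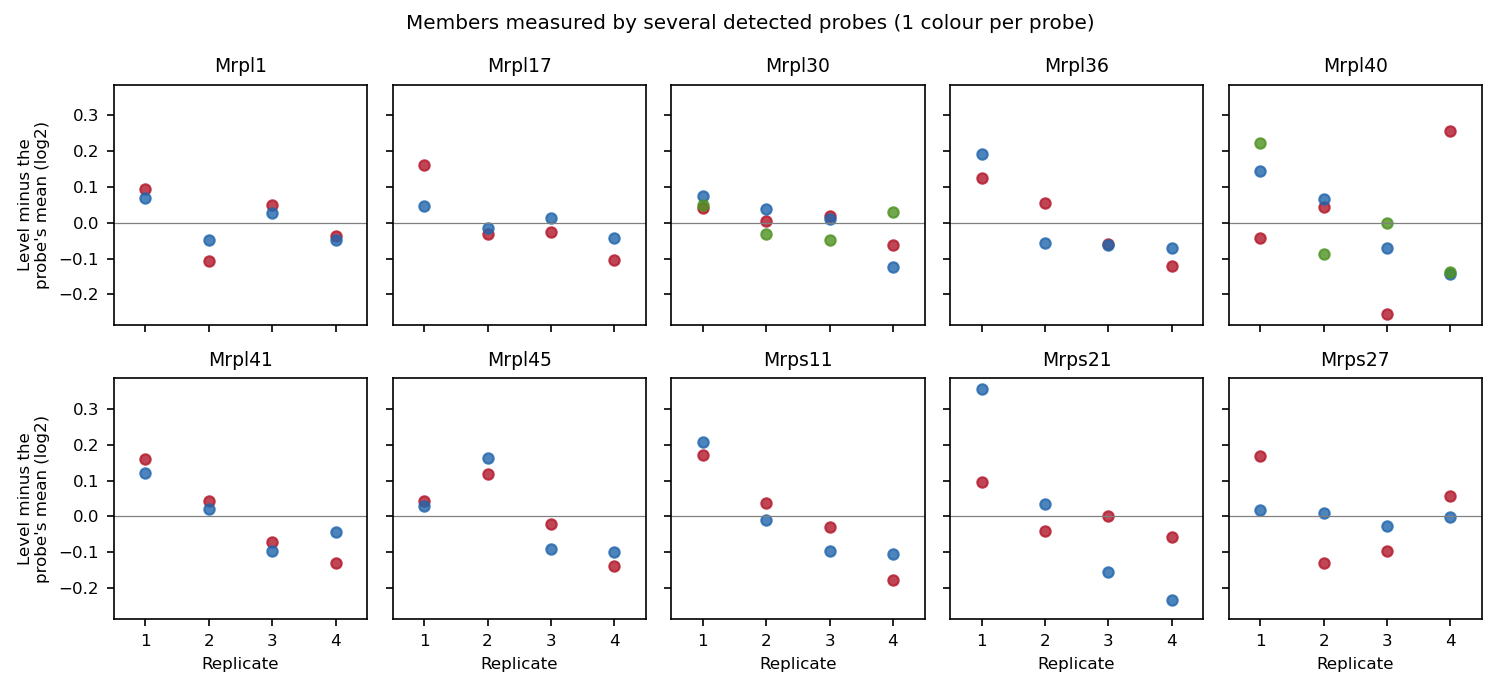
Level minus the probe's mean over 4 replicates (log2) in each replicate for the 10 members with at least 2 detected probes, 1 colour per probe. Points of a gene nearly coincide for Mrpl1, Mrpl45 and Mrps11, and spread for Mrpl40 and Mrps21, whose largest gaps are 0.40 and 0.26.

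Other genes of mitochondrial translation were detected as widely but did not all share the replicate pattern. The 5 measured mitoribosomal genes with other names (Dap3, Ptcd3, Chchd1, Aurkaip1 and Gadd45gip1) were all detected, and all 5 were highest in replicate 1 (34.6% of all genes). Of these, Gadd45gip1 had 2.29, 1.91, 1.97 and 1.93 (SD 0.18) and Ptcd3, a pentatricopeptide repeat protein of the small subunit, 0.14, -0.06, -0.07 and -0.25 (SD 0.16). All 17 measured genes of presequence import and processing, through which the ribosomal proteins enter, were detected, with a median deviation of 0.10 in replicate 1 and -0.07 in replicate 4. By SD, which is not adjusted for brightness here or in the next paragraph, their most variable genes were Timm44 (SD 0.31) and Timm17a (SD 0.25). Dim genes have higher SDs: in the dimmest 2905 detected genes the median SD was 0.213.

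The factors that build and serve the ribosome had other patterns. All 22 measured genes of mitoribosome assembly and rRNA modification were detected. Of the 22, 10 were lowest in replicate 2 (27.4% of all genes), where the median deviation of the list was -0.10. Their most variable genes were Mettl15, a methyltransferase of the small subunit RNA, with -5.87, -6.52, -5.04 and -5.32 (SD 0.65, unadjusted p = 0.0287 and adjusted p = 0.969, limma residual variance), and Ybey (SD 0.27). All 18 measured genes listed as mitochondrial aminoacyl-tRNA synthetases were detected, 11 of them lowest in replicate 2 (27.4% of all genes). Their median deviation there was -0.14, and Hars2 (SD 0.38) and Aars2 (SD 0.37) were the most variable. This list also takes in Gatc and Qrsl1, which are not synthetases, and Gars1 and Kars1, which also serve the cytosol. All 14 genes of the translation factor list, which also holds Oxa1l and Letm1, were detected. Their median deviation was 0.02 in replicate 1 and 0.09 in replicate 4, and Mtfmt and Taco1 were the most variable (SD 0.28 each). Of 20 genes listed under mitochondrial transcription and RNA stability, 17 were detected, and Mterf2, Pnpt1 and Slirp were not. The list also holds Polg, Polg2 and Twnk, genes of mitochondrial DNA replication. Tfb2m and Fastkd1 were the most variable (SD 0.34 each). In limma's fit over all detected genes, 0 genes of these 6 pathway lists were called, against 0.0115% of all genes. An unadjusted p under 0.05 was found for 1 of them, Mettl15, against 4.3% of all genes.

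The mitochondrial ribosomal protein genes had a median SD of 0.110, against 0.204 in 74 genes of the cytosolic ribosome, whose median deviations were 0.14, 0.18, -0.11 and -0.21 in replicates 1 to 4. The 72 detected genes of the respiratory chain and ATP synthase, the complexes that the products of the mitochondrial ribosome join, had medians of 0.10, 0.05, -0.03 and -0.12 and a median SD of 0.114. In replicate 1, 71 of the 74 cytosolic and 65 of the 72 respiratory genes were above their own mean (53.3% of all genes). In replicate 4, 0 and 6 of them were (51.5% of all genes). The shift was thus shared with both lists and was not particular to the members. These values are descriptions, and differences between the lists were not tested.

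**Figure D5:**
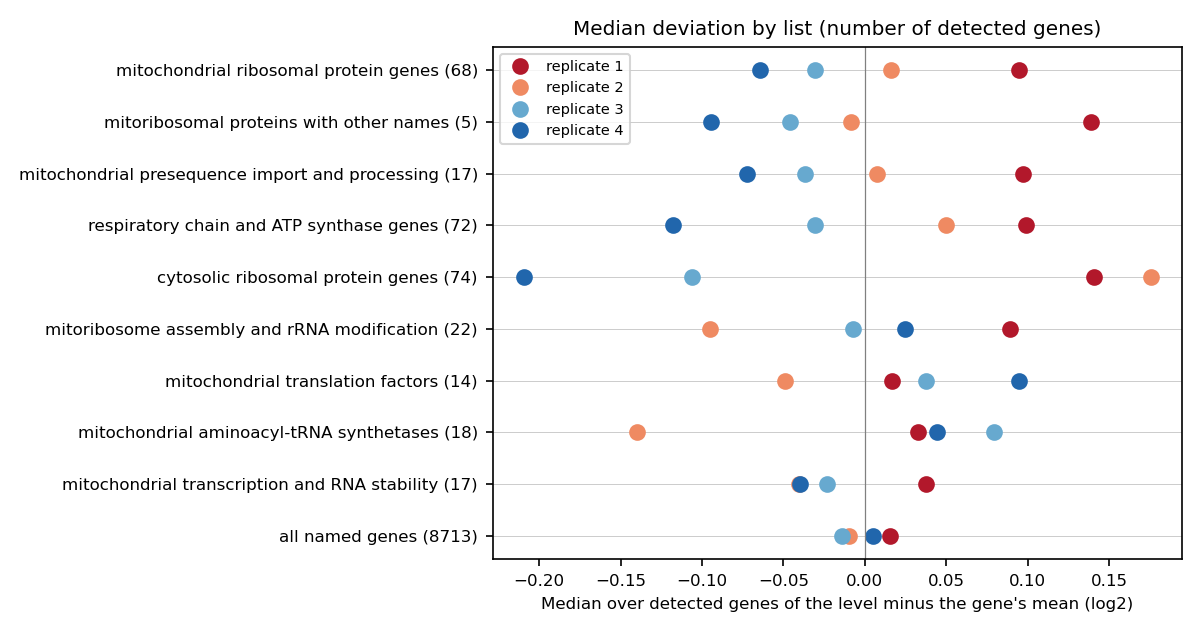
Median over the detected genes of a list (number in brackets) of the level minus the gene's mean (log2), by replicate. The mitochondrial ribosomal protein genes have replicate 1 at 0.09 and replicate 4 at -0.06. Cytosolic ribosomal protein genes have them at 0.14 and -0.21, and respiratory chain and ATP synthase genes at 0.10 and -0.12. The aminoacyl-tRNA synthetase list has replicate 2 lowest, at -0.14.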

How the data were processed

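Per the labels' protocols, 100 ng of total RNA with an integrity number above 7.5 went into Cy3 labelling for each of 4 single-colour Agilent arrays. The deposited intensity of each spot is the processed signal of Agilent Feature Extraction 11.0.1.1, per the file headers and the submitters' processing notes; the headers list background-subtraction and spatial detrending statistics, and a step that scales arrays to each other is not given in these sources. Deposited spot flags were used as given. Of 62976 spots per array, 4259 control spots and the outlier spots (537 to 722 per array) were left out, and 0 spots were saturated. Replicate spots were averaged as log2 values of the deposited intensity, and a probe was detected where most spots were well above background on all 4 arrays. Levels were scaled to the 75th percentile of the 39.3% of probes so detected. A RefSeq gene list (GRCr8; the files use an older build), searched by unversioned accession, named 21109 of 45598 probes. A gene took its brightest detected probe.

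Spread between replicates was tested over 8713 detected genes with limma 3.58.1 (R 4.3.3): each gene's residual variance around its mean was set against the trended prior variance in an F test, with Benjamini-Hochberg adjustment at 0.05; it was checked on simulated data. The number of arrays limits the precision, and per the file headers all arrays shared 1 slide and 1 scan, so array position and replicate cannot be told apart. P-values measure only the spread between these samples. Other tools were Python 3.11.15, pandas 2.3.3 and matplotlib 3.10.9. An area was called dim if it was a block (12 by 10 blocks per array) with a share of at least 0.05 of spots 1 log2 unit or more below the median of the other arrays (binomial p under 0.001), and neighbours were spots within 5 rows and columns. Members and lists were chosen with earlier results of these data known. Named members are those fixed by role, the 5 with the largest and the 5 with the smallest SD, and those whose probes disagree on detection. Mrps11, Mrps21, Mrps24, Mrpl1, Mrpl22, Mrpl35, Mrpl38, Mrpl40, Mrpl46, Hira and Fau were named after their values were seen. Motifs of 9 letters replaced longer forms of the YY1 and NRF1 motifs that had been searched first. Of the genes fixed by role, Mrps36, Mrpl11 and Mrpl28 were not analysed here. Alternatives were other scalings, background correction, detection rules, probe choices, prior variances, dim areas left out and each replicate left out.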

Additional observations from a re-analysis of the deposited data

Results flagged for a closer look

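In 5 of 69 sets of 4 values, 1 replicate was remote from its group under Dixon's test (the gap to the nearest value over the whole range). Chance alone gives about 1 in 20, here 3.45. The share of all detected genes past the same limit is not given here, so the 5 cannot be set against it. Mrpl15 was high in replicate 1 (ratio 0.9505), at -1.80 against -2.18, -2.18 and -2.20 in the others. Mrpl21 was low in replicate 4 (ratio 0.8962), at -1.81 against -1.17, -1.15 and -1.22. Mrpl35, at -1.63 in replicate 4 against -1.73, -1.73 and -1.75, had a ratio of 0.8885 within a narrow range. Mrps15 was low in replicate 1 (ratio 0.8775), where its spot lay in a dim area, as given above. Mrps24 was high in replicate 1 (ratio 0.8704), at 2.18 against 1.97, 1.94 and 1.95.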

How the results depend on the processing

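All 68 members stayed detected under the flag for positive and significant signal, on at least 3 of 4 arrays, with all spots required, with outlier spots kept and without each replicate. Of the members, 64 had every probe detected. Of all named genes, 8713 were detected in the reported setting, and in the alternatives from 7910 (every probe detected) to 10229 (flag for positive and significant signal). No member was called variable under any of the 14 alternatives run, in which only 0 to 9 of all genes were called. Mrps14 and Mrps15 drop out without dim array areas, so they were not tested there. The count of members at an unadjusted p under 0.05 (limma) was 2 in the reported setting, 1 without dim array areas, 1 with a constant prior variance, and 2 or 3 in the other alternatives. Over all genes this count was 375 in the reported setting. In the alternatives it ran from 349 (quantile normalization or a constant prior variance) to 915 (no filter on dim probes). The count of members spanning over 1.5-fold was 5 in the reported setting, 3 with normexp on the median spot signal, 2 without dim array areas, and 1 to 5 when a replicate was left out (1 without replicate 1 and 2 without replicate 4). The median SD of members ran from 0.079 (without replicate 1) to 0.127 (75th percentile over all probes). Over all genes it ran from 0.116 (without replicate 1) to 0.163 (no filter on dim probes). The medians lay closest with normexp on the median spot signal, at 0.122 for members and 0.130 for all genes. The median deviation of the members in replicate 1 ran from 0.08 to 0.12, and in replicate 4 from -0.03 to -0.11, the same sign in each alternative. In replicate 2 it was -0.004 without replicate 4 and above 0 otherwise. Normexp used the median spot signal. No paired analysis was possible because there is 1 group.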
